A study of Mus musculus with 16 samples.

Results

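The stool bacteria of Msc knock-out (KO) mice were compared between colitis and health. The 8 KO libraries of the study were chosen by their labels, 4 from healthy mice at time point 0 (KO healthy) and 4 from mice with colitis at time point 1 (KO DSS), out of 16 libraries in all. The other 8 are wild-type (WT) libraries of the same design, 4 healthy and 4 with colitis, which served to estimate the spread and to test where the change in KO mice differed from that in WT mice. Each library is bacterial DNA from mouse stool, amplified over the V3 to V4 stretch of the bacterial 16S rRNA gene and counted per amplicon sequence variant (ASV), a distinct sequence of the amplified stretch. The KO libraries held 465384 of 948231 reads and 488 of 1330 ASVs, which carried 83 of 340 genus labels, 40 family labels and 7 phylum labels.

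Musculin, the product of Msc, is a transcription factor of the basic helix-loop-helix family. The deposited labels give the genotype as KO with no further detail of the allele. Dextran sulfate sodium (DSS) is a polymer that damages the colon lining, which the study's title names as the inducer of the colitis, while the condition label spells it DDS. Dose, length of treatment, strain, sex, age and cage are not given in the sources used here. Every colitis library is also a library of the later time point, so the effects of colitis and of time cannot be told apart. Nothing in the labels tells whether replicates of 1 number are 1 animal sampled at both times, so the groups were compared as independent, and p-values measure only the spread between these samples.

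The healthy mouse colon is an oxygen-poor habitat in which obligate anaerobes, above all Muribaculaceae and many Clostridia, ferment fibre and mucus glycans to short-chain fatty acids. Lactobacilli tolerate oxygen and ferment sugars to lactic acid. When the lining is damaged, as under DSS, oxygen, nitrate and host mucus reach the lumen, and facultative anaerobes such as Escherichia are known to grow. A share of reads is relative, so a taxon can also gain share because another has lost it.

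KO healthy libraries held 50817 to 57867 reads and KO DSS libraries 55414 to 70577. No library share in KO mice had a 95% Wilson interval wider than 0.403 percentage points to either side, while chi-square values per degree of freedom between replicates of a group, 35 to 141, were far above the 1 that counting alone gives. A taxon without reads may hold up to 3 reads, on average 0.00545% of a healthy library and 0.00494% of a DSS library. A fold written as "at least" is the mean share in the other group over that floor. Such bounds and the Wilson intervals cover counting error alone, because reads copied by PCR are no independent molecules. Chloroplast and mitochondrial sequences came to 2 reads in the healthy and 26 in the DSS libraries.

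Some libraries stood apart. KO DSS replicate 1 held asv12, a sequence of the Lachnospiraceae NK4A136 group, at 20.7% of its reads (Wilson interval 20.4% to 21.1%), KO DSS replicate 0 had the highest shares of Escherichia-Shigella and Enterococcus, and KO healthy replicate 3 had the lowest share of Lactobacillus and the most ASVs. Of the WT libraries in the fit, WT DSS replicate 1 held 844 ASVs, 711 of them in no other library. Without it 25 genera and 88 ASVs passed the comparison below in place of 23 and 89, and without KO DSS replicate 1 they numbered 22 and 68.

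The stool communities of healthy and DSS KO mice were far apart. Bray-Curtis distances of ASV shares, which run from 0 for the same profile to 1 for no shared sequence, were 0.184 to 0.330 within KO healthy and 0.212 to 0.385 within KO DSS libraries. The 16 distances between a healthy and a DSS library were larger, at 0.511 to 0.650. Condition accounted for 69.3% of the variation (exact permutation p = 0.0286, the smallest that 4 against 4 can give).

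**Figure D1:**
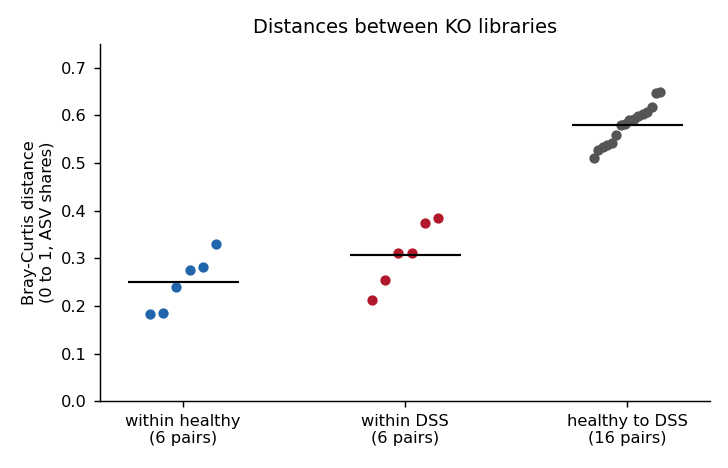
Bray-Curtis distance of ASV shares (y axis, 0 to 1) for the 6 pairs of KO healthy libraries, the 6 pairs of KO DSS libraries and the 16 pairs between them; each point is a pair of libraries and each line is the mean. The pairs between the groups sit at 0.511 to 0.650, above all pairs within a group.

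Set against the WT groups, the KO DSS libraries lay at a mean distance of 0.427 from WT healthy and 0.416 from WT DSS libraries. KO healthy libraries lay at 0.434 from WT healthy and 0.647 from WT DSS libraries. These means are descriptions and were not tested.

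Fewer ASVs were seen in colitis. At an equal depth of 49253 reads, KO healthy replicates 0 to 3 held 226, 217, 220 and 260 ASVs and KO DSS replicates 0 to 3 held 199, 206, 203 and 210. The groups did not overlap, and the means were 230.6 ± 19.8 and 204.3 ± 4.78 (SD, n = 4 each; two-sided exact permutation p = 0.0286). With any 1 DSS library left out the exact p was 0.0571 to 0.0857, at differences of -24.4 without replicate 0, -26.9 without replicate 1, -25.8 without replicate 2 and -28.2 without replicate 3. Without KO healthy replicate 3 the difference was -16.6 (exact p = 0.0286).

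The genus profile was more diverse in colitis by the Shannon index. The Shannon index of genera, which rises with the number of genera and the evenness of their shares, was 1.93, 2.13, 2.10 and 2.38 in the healthy and 2.47, 2.40, 2.53 and 2.48 in the DSS replicates, in order from 0 to 3. All 4 DSS libraries lay above all 4 healthy ones (difference 0.34, two-sided exact permutation p = 0.0286). On single ASVs the same index overlapped between the groups (2.84, 3.02, 2.96 and 3.38 against 3.19, 3.19, 3.42 and 3.31, two-sided exact permutation p = 0.143). Without KO healthy replicate 3, the ASV index differed by 0.34 with an exact p of 0.0286.

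Many sequences were seen in 1 group alone. Of the 488 ASVs of KO mice, 157 were read in healthy libraries and in no DSS library, 127 in DSS libraries and in no healthy one, and 204 in both. The 54 ASVs found in all 8 libraries carried 68.2 ± 4.80% of healthy and 71.1 ± 6.73% of DSS reads. ASVs restricted to the DSS libraries carried 13%, 30.6%, 14.9% and 19.7% of the reads of DSS replicates 0 to 3, and asv12 is most of the 30.6%.

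Among 66 genera tested, 14 rose and 9 fell in KO DSS against KO healthy libraries at an adjusted p under 0.05. The rises are 21.2% and the falls 13.6% of the genera tested, and 22 genera (33.3%) had groups that did not overlap, 18 of them called. Of the 23 called genera, 4 had no read in any healthy library and 3 none in any DSS library. The median log2 change over all 66 was 0.66 with the scaling used (TMM factors), 0.09 with TMMwsp factors and 0.02 on centred log-ratios, so values for single genera are best read against that shift. The split of rises to falls moved with it, to 12 and 14 with TMMwsp factors and to 9 and 12 on centred log-ratios, but no called genus changed sign under any of the 26 settings tried.

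Of the called genera, 10 passed in all 26 settings: Ruminococcus, the Eubacterium fissicatena and siraeum groups, Monoglobus, Escherichia-Shigella, unclassified Oscillospiraceae, Lachnospiraceae UCG-001, Marvinbryantia, Roseburia and Lactobacillus. With 1 library left out at a time, 16 passed in every fit that tested them. Parvibacter, 1 of these, was tested in only 4 of the 8 fits without a KO library. It fell under the read filter when a KO DSS library was missing. For a taxon that met this filter through the DSS libraries alone, passing is no separate support for its presence there. Without KO DSS replicate 0 the number of genera that rose was 8 in place of 14. With no filter, where 340 genera were tested, 15 passed, 14 of them among the 23. The 9 that then missed were Muribaculaceae, Enterococcus, Incertae Sedis, Harryflintia, A2, Turicibacter, Adlercreutzia, Parvibacter and Defluviitaleaceae UCG-011.

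**Figure D2:**
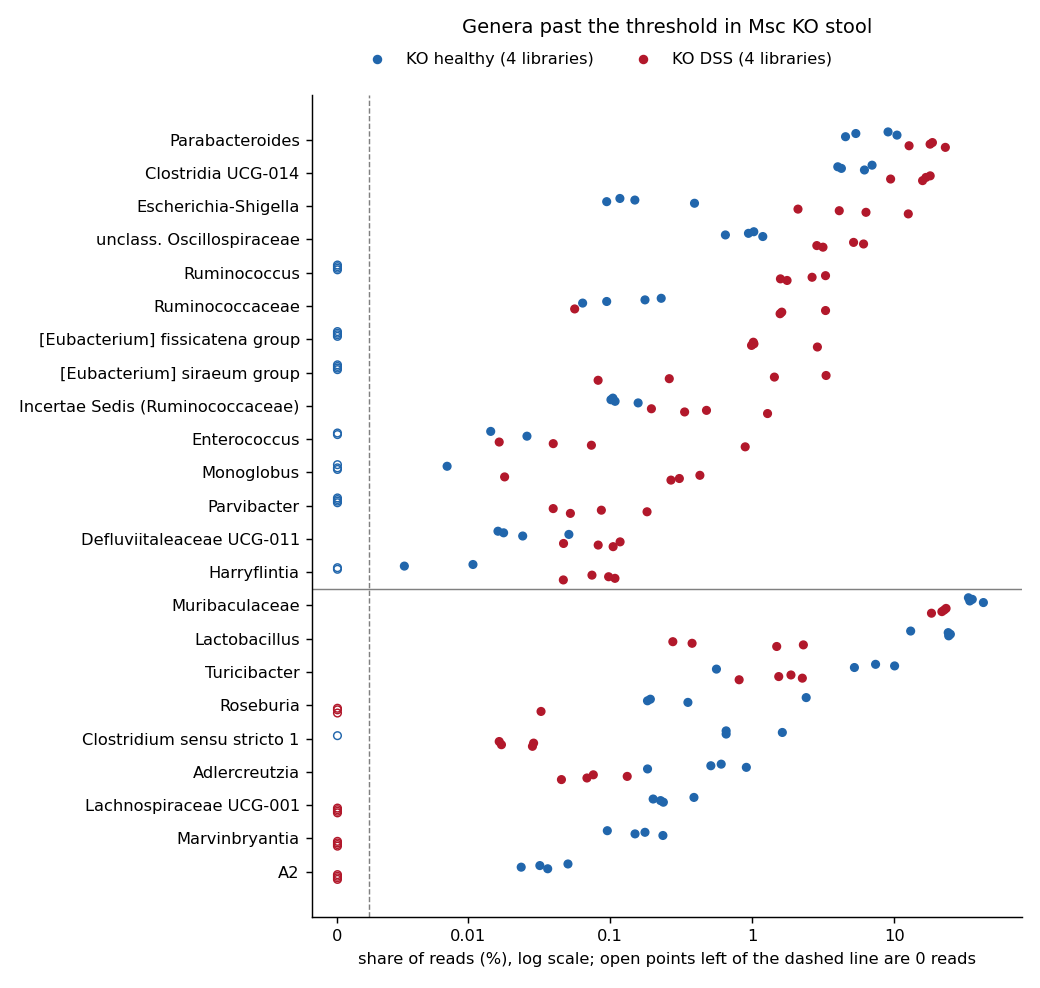
Share of reads (x axis, percent, log scale) of the 23 genera past the threshold in each of the 4 KO healthy and 4 KO DSS libraries; open points left of the dashed line are libraries with 0 reads, rises are above and falls below the horizontal line. Ruminococcus, the fissicatena group, the siraeum group and Parvibacter have 0 reads in all 4 healthy libraries, and Lachnospiraceae UCG-001, Marvinbryantia and A2 in all 4 DSS libraries.

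**Figure D3:**
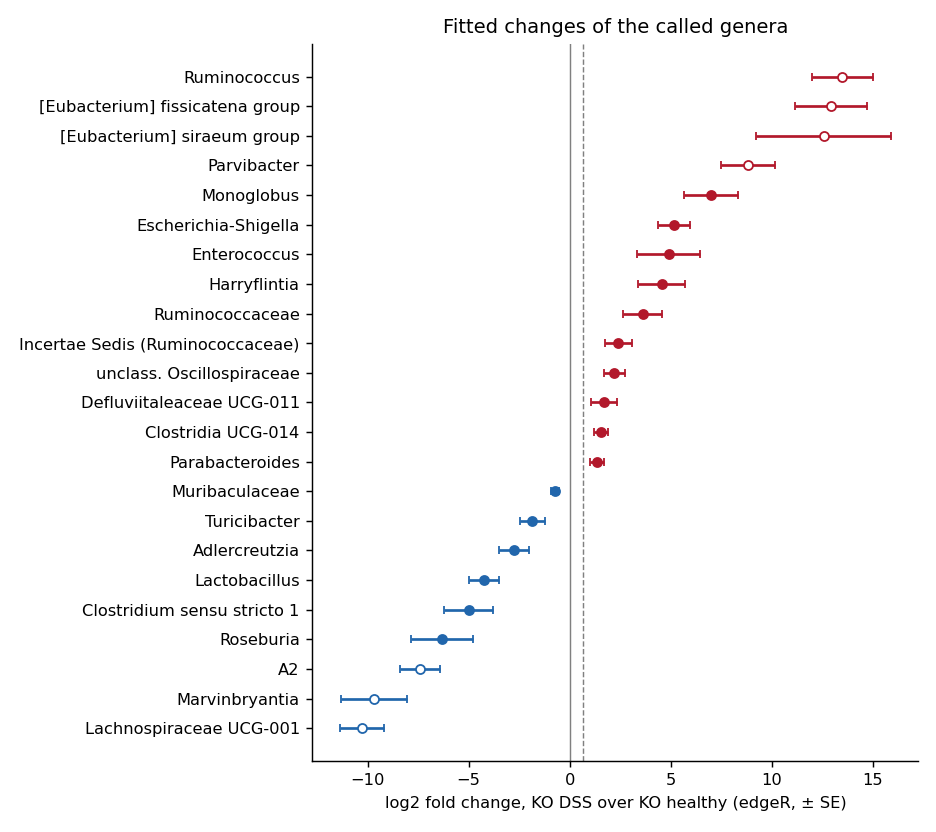
Log2 fold change, KO DSS over KO healthy, of the called genera with its standard error (edgeR fit of 16 libraries); open points are genera with no read in one group, whose fitted size depends on the prior count. The dashed line is the median of all 66 genera tested, 0.66.

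Lactobacillus, the main lactic acid producer of mouse stool, lost nearly all of its share. KO healthy replicates 0 to 3 held 24.2%, 24.9%, 24.0% and 13.1% Lactobacillus reads, and KO DSS replicates 1.49%, 2.29%, 0.377% and 0.276%. The groups lay far apart, with a 19.4-fold lower mean in colitis (log2 change -4.24 ± 0.74, SE, adjusted p = 0.000299).

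The loss was uneven between species. The genus consisted of 4 ASVs in KO mice: asv4 and asv14, labelled Lactobacillus murinus, asv8, labelled L. johnsonii, and asv99, labelled L. intestinalis. L. murinus took 23.3%, 14.9%, 17.8% and 5.57% of the healthy libraries and 0.0142%, 0, 0 and 0 of the DSS libraries. It was thus read in a single DSS library, where asv4 had 10 reads. Its ASV asv4 was 3609-fold lower (adjusted p = 0.000182) and asv14, without a DSS read, at least 532-fold lower (adjusted p = 8.26e-05).

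L. johnsonii kept a measurable share. Its sequence asv8 took 0.83%, 9.86%, 6.19% and 7.45% of healthy and 1.47%, 2.29%, 0.377% and 0.276% of DSS libraries. The groups overlapped through healthy replicate 0, and the change did not pass (log2 change -2.34 ± 0.90, adjusted p = 0.0584). It did with DESeq2 (-2.13, adjusted p = 0.0464), with library sizes over all reads (-2.49, adjusted p = 0.0481), with no filter (-2.71, adjusted p = 0.00324) and without WT DSS replicate 0 (-2.35, adjusted p = 0.0324). L. intestinalis asv99, at 0.0321% in healthy libraries, had no DSS read (at least 6.5-fold lower, adjusted p = 0.00134).

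L. murinus thus went from 68.3% of Lactobacillus reads in KO healthy to 0.238% in KO DSS libraries. In WT mice it was 53.0% of the genus when healthy and 92.7% (85.4% to 97.9%) in colitis. The change of asv4 and of asv14 differed between genotypes (interaction log2 -9.78, adjusted p = 0.00232, and -11.90, adjusted p = 0.000471) and passed without any 1 of the 16 libraries and in 9 of 9 other settings. For asv8 the interaction did not pass (2.56, adjusted p = 0.303). The pair asv4 and asv14 kept a ratio of 4.73 to 5.26 over the healthy KO libraries.

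**Figure D4:**
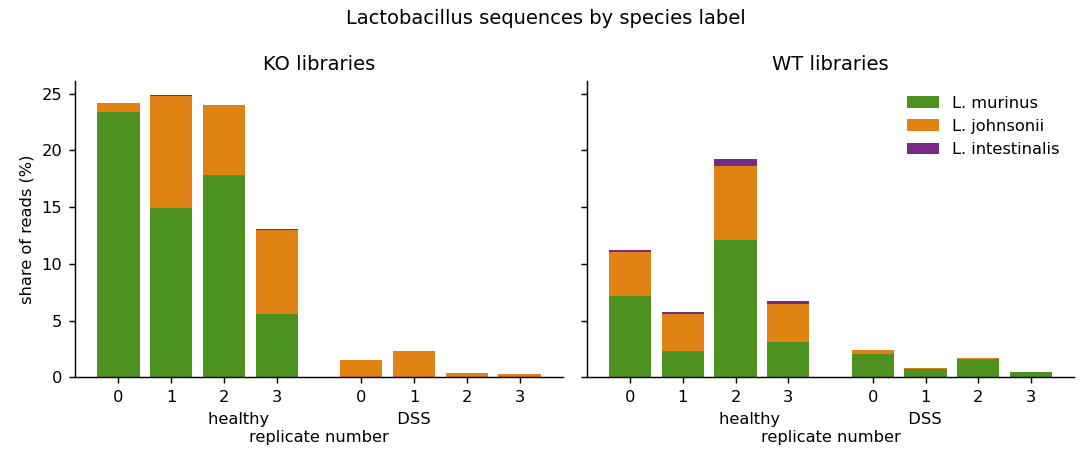
Share of reads (y axis, percent) of Lactobacillus murinus, L. johnsonii and L. intestinalis in each library, stacked, for KO mice and WT mice; each bar is a library. In KO mice L. murinus is at 5.57% to 23.3% in the healthy bars and at most 0.0142% in the DSS bars, where L. johnsonii holds 99.8% of the genus, against 7.29% in WT DSS.

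Bacteroidota, the other large share of the stool, shifted within the phylum. The genus label Muribaculaceae, anaerobes that degrade dietary and mucin glycans, took 42.5%, 34.1%, 35.5% and 33.3% of healthy and 18.3%, 21.7%, 22.5% and 23.2% of DSS libraries. All healthy libraries lay above all DSS libraries (1.70-fold lower, log2 change -0.74 ± 0.19, adjusted p = 0.00571). The call missed the threshold without DSS replicate 1 (-0.70, adjusted p = 0.0647) and without DSS replicate 2 (-0.86, adjusted p = 0.0542). Its main sequences asv1 (27.6 ± 3.27% to 16.6 ± 1.63%) and asv3 (8.70 ± 0.928% to 4.78 ± 0.519%) each passed narrowly, with an adjusted p of 0.0378. Both lost the call when any of healthy replicates 0, 1 and 2 or DSS replicates 1, 2 and 3 was left out, and when WT healthy replicate 3 was (adjusted p 0.105 and 0.0915). They also lost it with RLE factors (0.122 and 0.0997), no filter (0.0824 and 0.268) and on centred log-ratios (log2 change -0.21 and -0.34, adjusted p 0.770 and 0.616), asv1 with DESeq2 (0.0912) and asv3 without WT healthy replicate 2 (0.0534). Together Muribaculaceae and Lactobacillus went from 57.9 ± 8.43% to 22.5 ± 1.87% of reads.

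Parabacteroides, a bile-tolerant anaerobe of the same order, took 4.54%, 10.5%, 5.37% and 9.05% of healthy and 22.9%, 12.7%, 17.9% and 18.6% of DSS libraries. The groups did not overlap, and the mean was 2.45-fold higher in colitis (log2 change 1.36 ± 0.34, adjusted p = 0.00464). A single ASV, asv2, labelled P. goldsteinii, held nearly all of it and rose alike (1.34 ± 0.33, adjusted p = 0.00824, but 0.0879 with no filter). Without DSS replicate 0 the genus missed the threshold (0.96, adjusted p = 0.0976). It was also lost with the KO libraries fitted alone (1.2, adjusted p = 0.0654) and on centred log-ratios (adjusted p = 0.0583).

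Escherichia-Shigella and Enterococcus, facultative anaerobes, rose in colitis. Escherichia-Shigella, Enterobacteriaceae that respire oxygen and nitrate, took 0.392%, 0.0945%, 0.149% and 0.117% of healthy and 12.6%, 6.33%, 4.10% and 2.10% of DSS libraries. The lowest DSS library was above the highest healthy one, and the mean was 33.3-fold higher (log2 change 5.15 ± 0.78, adjusted p = 0.000121). The DSS mean of 6.27% was 4.18% without DSS replicate 0. The sequences asv9 and asv29 made up most of the genus, at a ratio of 4.76 to 5.42 in every DSS library.

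Enterococcus, lactic acid cocci, followed with a smaller share. It took 0.0259%, 0, 0 and 0.0144% of healthy and 0.893%, 0.0737%, 0.0397% and 0.0165% of DSS libraries, so that the groups overlapped at their edges. The mean was 25.4-fold higher (log2 change 4.88 ± 1.55, adjusted p = 0.0194). Without DSS replicate 0 its DSS mean was 0.0433% and the call was lost (1.75, adjusted p = 0.324). It was also lost without healthy replicate 2 (4.49, adjusted p = 0.0513) or healthy replicate 3 (5.0, adjusted p = 0.0510), on centred log-ratios (0.0526) and with the KO libraries alone (0.0616).

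Mucispirillum, a Deferribacterota of the mucus layer, took 0.287%, 0.185%, 0.332% and 0.589% of healthy and 1.31%, 1.45%, 1.5% and 1.58% of DSS libraries. These groups did not overlap, yet the fit did not call it (4.19-fold higher, log2 change 2.15 ± 0.86, adjusted p = 0.0579).

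Ruminococcaceae, anaerobes that include degraders of plant fibre and resistant starch, rose as a family and in most of its called sequences. The family took 0.878%, 0.773%, 0.760% and 1.65% of healthy and 5.01%, 4.33%, 8.69% and 7.35% of DSS libraries. No library of either group came near the other (6.24-fold higher, log2 change 2.25 ± 0.39, adjusted p = 0.000141). Of its 26 tested ASVs, 8 rose and 1 fell, against 34 (11%) that rose and 55 (17.9%) that fell among all 308 ASVs tested.

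Ruminococcus, a genus of fibre and starch degraders, had no read in any KO healthy library. It took 1.76%, 1.58%, 2.64% and 3.28% of the DSS libraries, at least 425-fold higher (adjusted p = 3.84e-05). Its 3 KO sequences all appeared: asv36 at 0.778%, 0.919%, 1.53% and 2.03%, asv24 at 0.866%, 0.319%, 0.725% and 0.927%, and asv112 at 0.116%, 0.343%, 0.383% and 0.326%. They were at least 241-fold, 130-fold and 53.5-fold higher. Of these, asv36 and asv112 were in no WT library.

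The Eubacterium siraeum group, also fibre degraders, was at 0 in all healthy libraries and at 0.0822%, 0.261%, 1.43% and 3.31% in DSS replicates 0 to 3 (at least 233-fold higher, adjusted p = 0.0116). In KO mice it was the single sequence asv37, which no WT library held. The siraeum reads of WT DSS libraries, 0.421% on average, belonged to another sequence, asv86, which no KO DSS library held.

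The other Ruminococcaceae labels gained less. The label Incertae Sedis took 0.157%, 0.108%, 0.101% and 0.104% of healthy and 1.28%, 0.334%, 0.476% and 0.195% of DSS libraries, without overlap (4.86-fold higher, log2 change 2.39 ± 0.67, adjusted p = 0.00885). Without DSS replicate 0 it missed the threshold (1.23, adjusted p = 0.147), as it did with TMMwsp factors (0.0600), centred log-ratios (0.0687), no filter (0.640) and the KO libraries alone (0.0551). Most of its gain was asv75, which went from 0.00443% to 0.470% (adjusted p = 0.0323) and lost its call without healthy replicate 2, healthy replicate 3 or DSS replicate 0, while asv267, at 0.0228% in healthy libraries, had no DSS read and missed the threshold with no filter (adjusted p = 0.0850).

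Reads labelled Ruminococcaceae at genus rank took 0.0639%, 0.0945%, 0.176% and 0.229% of healthy and 1.57%, 1.61%, 3.28% and 0.0562% of DSS libraries. DSS replicate 3 lay below every healthy library, and the mean was 11.6-fold higher (log2 change 3.61 ± 0.97, adjusted p = 0.00663). On centred log-ratios (limma) the call was lost (2.37, adjusted p = 0.118). Harryflintia took 0, 0, 0.00355% and 0.0108% of healthy and 0.0468%, 0.108%, 0.0974% and 0.0744% of DSS libraries (22.8-fold higher, log2 change 4.54 ± 1.18, adjusted p = 0.00571). Anaerotruncus stood at 0.135% and 0.134%, and unclassified Ruminococcaceae at 0.614% and 0.332% (log2 change -0.81, adjusted p = 0.249).

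Oscillospiraceae, relatives of Ruminococcaceae with many uncultured members, rose in the summed reads that carry no genus name. Unclassified Oscillospiraceae took 1.19%, 0.647%, 0.941% and 1.03% of healthy and 3.15%, 2.85%, 6.08% and 5.17% of DSS libraries. The groups were well apart (4.54-fold higher, log2 change 2.20 ± 0.53, adjusted p = 0.00402). The sequence asv19 had no healthy read and took 2.39%, 1.77%, 3.89% and 3.42% of the DSS libraries (at least 526-fold higher, adjusted p = 0.000491). As asv19 passed the read filter only through the DSS libraries, this p-value is no separate support for its presence there. ASVs found in DSS libraries and in no healthy one made up 71.4 ± 4.98% of the DSS reads under this label, against 19.6 ± 7.90% of all DSS reads. In the other direction asv69 went from 0.265 ± 0.0754% to 0.0432 ± 0.0656%, without passing (adjusted p = 0.0735). It passed with DESeq2 (-2.61, adjusted p = 0.0467), on centred log-ratios (-3.77, adjusted p = 0.0128) and without DSS replicate 2 (-4.35, adjusted p = 0.0274).

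The named genera of the family did not pass as a whole. Colidextribacter took 0.664%, 0.982%, 0.630% and 0.763% of healthy and 0.669%, 1.54%, 1.65% and 1.70% of DSS libraries (log2 change 0.87, adjusted p = 0.131). Within it asv85 rose from 0.0174% to 0.224% (12.9-fold, adjusted p = 0.0120, but 0.264 with no filter), and asv57 was at 0.240% and 0.201% (log2 change -0.25, adjusted p = 0.817; the sign turned on centred log-ratios and without healthy replicate 1). Oscillibacter stood at 0.408% and 0.951% (log2 change 1.25, adjusted p = 0.125) and UCG-005 at 0.178% and 0.343% (1.04, adjusted p = 0.146).

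Monoglobus, a pectin degrader placed in its own family, took 0, 0, 0.0071% and 0 of the healthy and 0.268%, 0.307%, 0.0180% and 0.428% of the DSS libraries. Its single healthy value was 4 reads, and every DSS library lay above it (log2 change 6.97 ± 1.34, adjusted p = 0.000669).

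Lachnospiraceae, anaerobes that include many butyrate producers, overlapped in share between the groups, while many of their sequences were seen in 1 group alone. The family took 13.5%, 13%, 14.3% and 19.5% of healthy and 11.7%, 30.7%, 14.2% and 14.3% of DSS libraries (log2 change -0.27, adjusted p = 0.398). Its sign turned positive with total counts or without any of healthy replicates 0, 1 and 2. Without asv12 the 30.7% of DSS replicate 1 would be 12.6% and the DSS mean 13.1%. Yet of 206 KO sequences of the family, 86 were read in healthy libraries alone, 51 in DSS libraries alone and 69 in both. Among all 488 KO ASVs these counts were 157, 127 and 204. Of the family's 118 tested ASVs, 11 rose (9.32%) and 32 fell (27.1%), against 11% and 17.9% among all 308. The family's median log2 change was -1.47 (-1.14 with unread ASVs at their bound) against 0.00 over all 308 ASVs. Of the 32, 30 had no DSS read, against 47 of the 55 that fell among all 308. Together the 32 went from 5.51 ± 1.71% of healthy reads to 0.00906% of DSS reads. They were chosen by their fall in this comparison, so the fall of their sum is no separate result.

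The Lachnospiraceae NK4A136 group, spore formers that include butyrate producers, took 7.19%, 6.79%, 6.67% and 9.25% of healthy and 5.43%, 26.2%, 6.66% and 7.57% of DSS libraries. It did not pass (log2 change 0.66 ± 0.51, adjusted p = 0.323), and without DSS replicate 1 the sign turned (-0.10). The sequence asv12, with no read in the healthy and WT libraries, had 0, 20.7%, 0.211% and 0.0909% in DSS replicates 0 to 3. It was read in 3 libraries and so was not tested. Without asv12 the group averaged 6.56 ± 0.860% in DSS libraries.

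Within the NK4A136 group the sequences differed between health and colitis. Of its 44 KO sequences 11 were in healthy libraries alone, 21 in DSS libraries alone and 12 in both. Among all 488 KO ASVs these counts were 157, 127 and 204. The 21 carried 64.1 ± 21.8% (40.9% to 90.1%) of the group's DSS reads. Over all taxa, ASVs in DSS libraries alone carried 19.6 ± 7.90% of DSS reads. The 21 include asv12, which took 20.7% of DSS replicate 1, where the whole group took 26.2%. Of the group's 19 tested ASVs 4 rose (21.1%) and 7 fell (36.8%), against 11% and 17.9% among all 308. Its most abundant lost sequence, asv27, took 2.84%, 2.14%, 0.0266% and 2.85% of healthy libraries and had no DSS read (at least 397-fold lower, adjusted p = 0.000323). Without a DSS read as well, asv56 was at least 34.4-fold and asv59 at least 32.3-fold lower. In the other direction asv40 went from 0.00355% to 0.475% (134-fold, adjusted p = 0.0167) and asv138 from 0 to 0.150%, 0.185%, 0.287% and 0.141% (at least 35-fold, adjusted p = 0.00268). Since asv138 passed the read filter only through the DSS libraries, its p-value is no separate support for its presence there.

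Other Lachnospiraceae genera moved in both directions. The Eubacterium fissicatena group, a single sequence (asv32) in these libraries, had no healthy read and took 2.88%, 0.989%, 1.03% and 1.02% of DSS libraries (at least 271-fold higher, adjusted p = 0.000292). Outside the KO DSS libraries asv32 was read in 1 WT DSS library alone, so it met the read filter through the KO DSS libraries. A p-value for it is thus no separate support for its presence there. Among unclassified Lachnospiraceae, asv44 appeared at 1.26%, 0.135%, 1.0% and 1.29% (at least 169-fold higher, adjusted p = 0.00694). Outside the KO DSS libraries asv44 was read in 2 WT DSS libraries alone, so its p-value is no separate support either. Under the same label asv71 and asv105 were lost (at least 52.3-fold and 31.1-fold lower). That label as a whole stood at 4.08 ± 0.914% and 3.01 ± 1.13% (log2 change -0.40, adjusted p = 0.362) and passed with TMMwsp factors (-1.01, adjusted p = 0.0274).

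Lachnospiraceae UCG-001 took 0.237%, 0.226%, 0.201% and 0.389% of healthy libraries and had no DSS read (at least 53.2-fold lower, adjusted p = 6.67e-05). Marvinbryantia, at 0.235%, 0.150%, 0.176% and 0.0954%, was lost as well (at least 33.2-fold lower, adjusted p = 0.000388), as was A2, at 0.0236% to 0.0504% (at least 7.2-fold lower, adjusted p = 0.000279). Roseburia, flagellated butyrate producers, took 0.353%, 0.183%, 0.192% and 2.40% of healthy libraries and 0.0326% of DSS replicate 1 alone. All healthy libraries lay above it (log2 change -6.34 ± 1.53, adjusted p = 0.00514), with a healthy mean of 0.782% that was 0.242% without replicate 3.

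The Eubacterium xylanophilum group took 0.655%, 1.21%, 0.971% and 0.965% of healthy libraries and, in colitis, 0.239% of replicate 0 and none of the others. Although the groups did not overlap, the genus did not pass (15.9-fold lower, log2 change -3.78 ± 1.64, adjusted p = 0.0892). Its sequence asv67 alone did (0.291 ± 0.0730% to 0, at least 59.0-fold lower, adjusted p = 0.000182).

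Clostridia UCG-014, an uncultured lineage known from sequences, was among the largest gains in share. It took 6.17%, 4.25%, 4.01% and 6.98% of healthy and 15.8%, 9.43%, 16.7% and 17.9% of DSS libraries. The groups did not overlap (2.80-fold higher, log2 change 1.55 ± 0.33, adjusted p = 0.00175). Without DSS replicate 0 the call was lost by a small margin (1.29, adjusted p = 0.0507), as it was on centred log-ratios (1.13, adjusted p = 0.0583). Of its 34 tested ASVs, 4 rose (11.8%) and 6 fell (17.6%), near the 11% and 17.9% among all 308. The sequence asv5, with the largest gain among them, took 0.930%, 0.338%, 0.0639% and 0.922% of healthy and 6.14%, 4.92%, 6.21% and 9.69% of DSS libraries (12-fold higher, log2 change 3.67 ± 0.81, adjusted p = 0.00424). asv6, at 1.56 ± 0.616% and 4.43 ± 2.49%, did not pass (adjusted p = 0.0665) except with DESeq2 (0.0319) and without KO healthy replicate 0, KO DSS replicate 1, WT healthy replicate 3 or WT DSS replicate 0 (0.0105 to 0.0426). The sequence asv89, at 0.418 ± 0.332% in healthy libraries, had no DSS read (at least 84.5-fold lower, adjusted p = 0.0208).

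The vadinBB60 group, a further uncultured Clostridia lineage, stood at 1.05% and 0.989%. Of its 24 tested ASVs 3 fell (12.5%) and none rose, against 17.9% and 11% among all 308. asv202, at 0.0657%, 0.148%, 0 and 0.232% in the healthy libraries, had no DSS read (at least 22.5-fold lower, adjusted p = 0.0325) and lost its call without any 1 DSS library and with DESeq2 (adjusted p = 0.0555).

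Genera that fell also came from other lineages. Clostridium sensu stricto 1, the core Clostridium genus, took 0, 0.655%, 1.63% and 0.655% of healthy and 0.0283%, 0.0171%, 0.0289% and 0.0165% of DSS libraries. Healthy replicate 0 lay below the DSS libraries and the other healthy ones far above (32.4-fold lower, log2 change -5.01 ± 1.23, adjusted p = 0.00464). On centred log-ratios (limma) the call was lost (-3.13, adjusted p = 0.124).

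Turicibacter, of the order Erysipelotrichales, was at 0.560%, 5.24%, 10.1% and 7.39% in healthy and 0.809%, 2.25%, 1.54% and 1.87% in DSS libraries. Healthy replicate 0 overlapped with the DSS group (3.59-fold lower, log2 change -1.85 ± 0.64, adjusted p = 0.0309). The call was lost without healthy replicate 2 (-1.32, adjusted p = 0.136), healthy replicate 3 (-1.83, adjusted p = 0.0554) or any 1 DSS library (adjusted p 0.0931, 0.0679, 0.0753 and 0.0558 without replicates 0 to 3), and on centred log-ratios (0.0918).

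Adlercreutzia, Eggerthellaceae known for converting isoflavones, took 0.183%, 0.909%, 0.511% and 0.605% of healthy and 0.0453%, 0.0686%, 0.132% and 0.0760% of DSS libraries (6.87-fold lower, log2 change -2.78 ± 0.75, adjusted p = 0.00663). Its groups did not overlap. Parvibacter, of the same family, moved the other way, from no healthy read to 0.0524%, 0.182%, 0.0866% and 0.0397% (at least 16.5-fold higher, adjusted p = 0.00175). It passed the read filter only through the DSS libraries, so this p-value is no separate support for its presence there.

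Defluviitaleaceae UCG-011 rose from 0.0273 ± 0.0163% to 0.0879 ± 0.0309% (3.21-fold, log2 change 1.69 ± 0.63, adjusted p = 0.0476), with overlapping groups. This call, just inside the threshold, was lost without KO healthy replicate 0, 2 or 3, KO DSS replicate 0 or 3, WT healthy replicate 2 or 3 or WT DSS replicate 2, with TMMwsp factors (adjusted p = 0.0987) and with the KO libraries alone (0.105).

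At the level of single sequences 89 of 308 ASVs passed, and 86 (27.9%) had groups that did not overlap, 66 of them called. Of the 89, 20 had no healthy read and 47 no DSS read. The number of ASVs that rose, 34, was 19 without DSS replicate 0 and 20 without DSS replicate 3. 

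Some sequences were present in every library of one group and in none of the other. In all 4 healthy and no DSS library there were 36, with 7.42% of healthy reads on average: 27 Lachnospiraceae, 5 Clostridia UCG-014, 2 Lactobacillaceae, 1 Ruminococcaceae and 1 Anaerovoracaceae. WT healthy libraries held 34 of the 36 and WT DSS libraries 8. In all 4 DSS and no healthy library there were 15, with 9.51% of DSS reads: 5 Ruminococcaceae, 5 Lachnospiraceae and 1 each of Oscillospiraceae, Clostridia UCG-014, Eggerthellaceae, UCG-010 and Chloroplast. WT healthy libraries held 4 of the 15 and WT DSS libraries 7. Among all 488 KO ASVs, 206 were Lachnospiraceae, 63 Oscillospiraceae, 58 Clostridia UCG-014 and 34 Ruminococcaceae. Of all 157 ASVs read in healthy but no DSS libraries, 91 were in a WT library. Of the 127 read in DSS but no healthy libraries, 44 were.

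No WT library held 8 of these 15: asv36, asv37, asv112, asv138, asv154, asv223, asv259 and asv328. Together these 8 took 3.41 ± 1.98% of the KO DSS reads (1.58% to 6.02%). Each passed the read filter only because every KO DSS library held it, so its call is no separate support for its presence there. Whether they were in the stool of these mice before DSS at a level under the floor was not tested.

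Of 26 families tested, 7 rose (26.9%) and 6 fell (23.1%), and 10 (38.5%) had groups that did not overlap, 8 of them called. The median log2 change over the 26 was 0.76, and 0.36 on centred log-ratios. The split of 7 to 6 was 10 to 5 with total counts, 3 to 5 on centred log-ratios, 4 to 6 with a filter of 20 reads and 4 to 6 with the KO libraries fitted alone. It was 4 rises without healthy replicate 3, and 2 falls without healthy replicate 2.

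Beside Ruminococcaceae, the families that rose included Enterobacteriaceae (log2 change 4.51, adjusted p = 4.17e-05), Clostridia UCG-014 (1.06, adjusted p = 0.00944, but 0.123 with a filter of 20 reads, 0.185 on centred log-ratios and 0.0631 with the KO libraries alone), Tannerellaceae, the family of Parabacteroides (0.86, adjusted p = 0.0167), and Oscillospiraceae (2.45 ± 0.369% to 7.08 ± 2.46%, 1.12, adjusted p = 0.0212). Oscillospiraceae lost the call without healthy replicate 3 (0.91, adjusted p = 0.0681), DSS replicate 2 (0.87, adjusted p = 0.0797) or DSS replicate 3 (0.79, adjusted p = 0.101). It was also lost with TMMwsp factors (adjusted p = 0.0525), RLE factors (0.0678), centred log-ratios (0.266), no filter (0.218), a filter of 20 reads (0.160) and the KO libraries alone (0.0884). Tannerellaceae lost it without healthy replicate 3, DSS replicate 0 or 3 or WT DSS replicate 1 or 2, with adjusted p of 0.0681, 0.0540 and 0.0793 for the KO ones, on centred log-ratios (0.229), with a filter of 20 reads (0.194) and with the KO libraries alone (0.145). Lactobacillaceae (-4.89, adjusted p = 4.17e-05), Muribaculaceae (-1.23, adjusted p = 7.5e-05) and Erysipelotrichaceae (-2.28, adjusted p = 0.00628) fell. Without healthy replicate 2, the last 2 were at -0.59 (adjusted p = 0.0643) and -1.34 (adjusted p = 0.0987). In KO mice Muribaculaceae, Clostridia UCG-014, Lactobacillaceae and Enterobacteriaceae had the shares of the genus labels given above. Their family values come from the same reads under other scaling factors and are no separate results.

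At the rank of phylum no change passed the adjusted threshold. Proteobacteria went from 0.192% to 6.28% and Deferribacterota from 0.348% to 1.46%, each without overlap (two-sided exact permutation p = 0.0286, adjusted 0.0714 over 5 phyla). That p is the smallest the test can give here. With only 2 of 5 phyla at it, neither could pass after adjustment, so their miss does not show a lack of change. Actinobacteriota stood at 0.552% and 0.171%, Bacteroidota at 43.7% and 39.4% and Firmicutes at 55.2% and 52.6%. Of the 5 tested, 0 passed by the exact permutation test and 2 had an unadjusted p under 0.05, with no other tool run. Without healthy replicate 0, 3 phyla passed at an adjusted p of 0.0476. The log2 ratio of Firmicutes to Bacteroidota was 0.34 and 0.41 (difference 0.08, exact p = 0.657), and the difference was -0.03 without DSS replicate 1. It was 0.78 (exact p = 0.0286) once Lactobacillaceae reads were set aside. These are Firmicutes that fell from 21.5% to 1.11% in the same comparison. Setting them aside lowers the ratio mainly in healthy libraries, so this p-value is no separate result.

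Lists of taxa by known role or lineage are described by counts, and no test was made on a list. Among all 308 ASVs tested 11% rose and 17.9% fell. The list of lactic acid bacteria held Lactobacillus alone in KO mice. Of its 4 tested ASVs 3 fell and none rose (median log2 change -9.46, or -5.88 with unread ASVs at their bound; 21.5% to 1.11% of reads). Enterococcus, which also makes lactic acid and rose, was counted with the facultative anaerobes of inflammation. Of these 3 of 3 rose (4.95; 0.204% to 6.53%). Among butyrate producers 5 of 41 rose (12.2%, near that of all ASVs) and 11 fell (26.8%; median -0.33; 9.87% and 12.6%). Their shares overlapped, at 9.13%, 8.69%, 8.22% and 13.4% of healthy and 6.26%, 26.7%, 7.78% and 9.88% of DSS libraries. The higher DSS mean rests on DSS replicate 1, where asv12 alone took 20.7%. Among fibre degraders 4 of 6 rose and 2 fell (8.77, or 6.38 at the bound; 0.265% to 2.57%). Of mucus dwellers and mucin degraders 1 of 2 rose (1.75; 7.70% to 19.5%). This list held only Mucispirillum and Parabacteroides, and most of its share was Parabacteroides. Muribaculaceae, which also degrade mucin glycans, were listed apart and fell from 36.3% to 21.4%. Over all 308 ASVs the median was 0.00, with or without the bound.

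By lineage, Ruminococcaceae with Oscillospiraceae had 11 rises (14.1%) and 4 falls (5.13%) among 78 ASVs (median 0.50; 3.59% to 13.5% of reads), and the uncultured Clostridia groups 4 rises (6.90%) and 9 falls (15.5%) among 58 (0.15; 6.4% to 16.0%), shares below and near those of all ASVs. Muribaculaceae had 2 falls among 3 (-0.72). The list of Bacteroidaceae, Tannerellaceae, Rikenellaceae and Marinifilaceae had 1 rise among 1, and Erysipelotrichales 1 rise and 1 fall among 9 (0.08; 6.12% to 2.31%). Actinobacteriota had 1 of each among 2 (3.0, or 0.62 at the bound; 0.552% to 0.171%). Wall-less Bacilli had no call among 3 by edgeR (-0.79; 1.23% and 0.794%; 1 had an unadjusted p under 0.05), and organelles none among 1. Sulfate reducers, segmented filamentous bacteria, Helicobacter and Campylobacter, and Saccharibacteria had no ASV with a read in KO mice.

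The change in KO mice was then set against that in WT mice by the interaction in the same fit. Of 66 genera 3 differed (4.55%), of 308 ASVs 17 (5.52%) and of 26 families 4 (15.4%), with 11, 52 and 7 at an unadjusted p under 0.05. Without any 1 library the number of ASVs was 4 to 7, and the genera numbered 1 without WT healthy replicate 3, KO healthy replicate 1 or KO healthy replicate 3 and 5 without KO healthy replicate 0.

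Ruminococcus went from 0 to 2.32 ± 0.794% in KO mice and from 1.61% to 0.231% in WT mice (adjusted p = 3.19e-05). Its sequence asv24 went from 0 to 0.709% in KO and from 1.14% to 0.231% in WT mice (adjusted p = 0.000471). In the NK4A136 group asv27 went from 1.96% to 0 in KO mice and from 0.0378% to 0.241% in WT mice (adjusted p = 0.000471). These 3 interactions, like those of asv4 and asv14, passed without any 1 of the 16 libraries and in 9 of 9 other settings.

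The family Ruminococcaceae differed as well (interaction log2 2.28, adjusted p = 0.00778), with 3.81% and 3.29% in WT mice, and passed without any 1 library, but not with no filter or a filter of 20 reads (adjusted p up to 0.0695). Monoglobus stood at 0.268% and 0.272% in WT mice and rose in KO mice (interaction 6.17, adjusted p = 0.0420), which passed in 5 of 16 fits with a library left out. Its family had the same shares and passed in 16 of 16 (6.35, adjusted p = 0.00778), though not with no filter. These are the same reads, scaled and adjusted among 26 families in place of 66 genera, so the family is no separate result. Unclassified Oscillospiraceae, at 1.89% and 0.892% in WT mice, differed in the interaction (2.67, adjusted p = 0.0420) and passed in 12 of the 16. It failed without WT healthy replicate 3 or KO healthy replicate 1, 2 or 3, with TMMwsp factors and with no filter. With replicate number as a block, neither unclassified Oscillospiraceae nor the genus Monoglobus passed.

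Several KO changes had WT values in the same direction. Escherichia-Shigella went from 0.126% to 4.85% in WT mice (interaction -0.70, adjusted p = 0.705), Parabacteroides from 15.9% to 26.1% (0.03, adjusted p = 1) and Lachnospiraceae UCG-001 from 0.330% to 0 (0.09, adjusted p = 1). A miss of the threshold does not show that the changes were alike. For sequences absent from both WT groups, such as asv36, asv37, asv112 and asv138, the interaction cannot be estimated.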

How the data were processed

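Read counts per ASV and library come from the deposited feature table, and the deposited taxonomy table gives the confidence of each assignment as a fraction from 0.70 to 1. Per the labels, stool DNA from a PowerSoil Pro kit was amplified and sequenced on an Illumina MiSeq. Cutadapt appears in the submitters' processing notes. The denoiser, classifier and database are not given in the sources used here. ASVs are numbered by total reads, and those without a genus name (387) were summed under the next named rank.

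Reads were summed by genus and family. Taxa with at least 5 reads in at least 4 of 16 libraries were tested with edgeR 4.0.16 (R 4.3.3), 1 quasi-likelihood fit of 4 groups scaled by TMM, at a Benjamini-Hochberg adjusted p under 0.05. Tested ASVs held 75.6% of reads in KO DSS replicate 1 and 93.7% to 99.0% in the other KO libraries. Diversity, ratios and phyla (log2 of percent plus 0.01) had two-sided exact permutation tests over 70 relabellings, and the indices were means of 100 draws. The fit was also run on simulated counts. No simulated group lacked a taxon by design, so that run does not bear on calls where a group had no reads.

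Alternatives were other scaling factors, DESeq2 1.42.0, limma 3.58.1 on centred log-ratios (pseudocount 0.5), other filters, KO libraries alone, replicate number as a block, and leaving out each library. The members, comparisons and the 18 lists of taxa were chosen with earlier results of these data known. Named taxa are called genera, the 10 most abundant genera and ASVs, listed genera of at least 0.1%, families of at least 1%, phyla of at least 0.1%, up to 8 called ASVs per direction by size of change, and the ASV with the largest gain and loss in each genus with at least 5 tested ASVs. asv29, asv86, asv99 and the ASVs counted as gained or lost were named in addition, after their values were seen.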

Additional observations from a re-analysis of the deposited data

Results flagged for a closer look

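Several libraries lay far from the other 3 of their group. For independent values of a normal spread, chance alone gives such a gap in about 1 of 20 groups. Among 202 groups of 4 checked, 27 had it. Shares are not such values. Several flagged groups had no read in the other 3 libraries, and some flags are the same reads at different ranks. The 27 can therefore not be set against that rate. KO DSS replicate 0 was highest for the fissicatena group and its sequence asv32 (2.88%), for Enterococcus (0.893%), the xylanophilum group (0.239%) and asv4 (0.0142%), and lowest for Colidextribacter (0.669%) and Lachnoclostridium (0.0680%). KO DSS replicate 1 was highest for asv12 (20.7%), the NK4A136 group (26.2%), the family Lachnospiraceae (30.7%) and Roseburia (0.0326%). KO DSS replicate 2 was highest for asv69 (0.141%), and replicate 3 for Tyzzerella (0.435%) and asv251 (0.0182%).

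KO healthy replicate 3 was lowest for Lactobacillus and its family (13.1%), and highest for Roseburia (2.40%), unclassified Ruminococcaceae (1.17%), the family Ruminococcaceae (1.65%) and asv100 (0.218%). KO healthy replicate 0 was highest for the label Incertae Sedis (0.157%), asv59 (0.316%) and asv267 (0.0415%), and replicate 1 for asv75 (0.0177%). KO healthy replicate 2 was highest for Monoglobus (0.0071%), asv40 (0.0142%) and asv92 (0.0213%).

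The change from health to colitis differed between KO and WT mice by the interaction test for several taxa, given as the log2 change in KO minus that in WT mice. It was higher in KO mice for Ruminococcus (15.69), asv24 (13.61), asv69 (7.27), unclassified Oscillospiraceae (2.67) and the family Ruminococcaceae (2.28). It was also higher for the family Monoglobaceae (6.35) and its genus Monoglobus (6.17), which are the same reads. It was lower for asv27 (-16.22), asv14 (-11.90), asv4 (-9.78), the family vadinBB60 group (-2.41) and the family Muribaculaceae (-0.84). Sizes for taxa with no read in a group depend on the prior count. With each library left out in turn, the vadinBB60 group passed in 5 of 16 fits, Muribaculaceae in 6 of 16 and asv69 in 1 of 16. In 9 other settings they passed in 3, 1 and 5. Without 1 library the sign for Muribaculaceae turned (0.10).

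The sequence asv12 entered no test, since it was read in 3 libraries, and averaged 5.26% of KO DSS reads with no healthy read.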

How the results depend on the processing

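For named taxa, 80 results were recomputed, giving 1812 values with the same direction and side of the threshold, 111 no longer past it, 37 newly past it and 10 with a turned sign; the causes were not tested. For the comparison within KO mice, leaving out WT libraries was an alternative chosen after seeing the data, as were library sizes over all reads and leaving out asv12. Genera past the threshold numbered 23, and 15 with no filter on low counts, where more genera are tested. Families numbered 13, and 8 with limma on centred log-ratios. Genera in the interaction numbered 3, and 5 with TMMwsp factors, 10 with DESeq2, 8 with limma and 1 to 5 without 1 library. ASVs in the interaction numbered 17, and 4, 37, 47 and 4 to 7 in the same order. Phyla past the threshold numbered 0, and 0 to 3 without 1 library. Without 1 library the difference in the Shannon index (0.23) was 0.155 to 0.336, in the number of ASVs (-26.3) -30.9 to -16.6, and in the log2 Firmicutes to Bacteroidota ratio (0.08) -0.0334 to 0.174. With genera in place of ASVs the Shannon difference was 0.338, and without Lactobacillaceae reads the ratio differed by 0.778. R2 of the Bray-Curtis distances kept its side of the threshold in all settings tried.

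Signs turned for the NK4A136 group with limma (-0.0384) and without DSS replicate 1 (range without 1 library -0.0984 to 0.672), for asv57 with limma (0.184) and without healthy replicate 1 (range -0.494 to 0.0488), and for Firmicutes without DSS replicate 0 (range -0.119 to 0.0017). For the family Lachnospiraceae they turned with total counts (0.234), with no filter (0.193) and without healthy replicate 0 (0.175), 1 (0.175) or 2 (range -0.708 to 0.393). None of these taxa was called.

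The data gave no sign that replicate numbers pair the samples. The correlation of same-numbered healthy and DSS deviations over genera was -0.0863, -0.269, 0.0776 and -0.146 for numbers 0 to 3, and over ASVs -0.00538, 0.0286, -0.0328 and 0.0788. With the numbers as a replicate block, 18 genera, 11 families and 51 ASVs passed, 1 genus and 6 ASVs in the interaction and 0 phyla. Calls lost under it included the interactions of Monoglobus and unclassified Oscillospiraceae (adjusted p = 0.136), asv1, asv3, the label Incertae Sedis, Oscillospiraceae and Tannerellaceae. The number of ASVs differed by -26.3 with an exact p of 0.125, the smallest that 4 pairs can give. The differences of 0.2255 in Shannon index and 0.076 in the ratio kept their side of the threshold. Precision is limited by 4 libraries a group, not by depth.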

Other observations

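Among genera on the lists that did not pass, Erysipelatoclostridium, which includes bile acid converters, took 0.0812%, 0.279%, 0.167% and 0.149% of KO healthy and 1.17%, 0.129%, 0.202% and 0.676% of KO DSS libraries (log2 change 1.76, adjusted p = 0.120). DSS replicates 0 and 3 were above the healthy libraries and the other DSS libraries within their range. Anaeroplasma, wall-less Bacilli, stood at 1.21 ± 0.817% and 0.724 ± 0.462% (log2 change -0.69, adjusted p = 0.374). Blautia, acetogenic Lachnospiraceae, stood at 0.188 ± 0.0671% and 0.0779 ± 0.0506% (-1.18, adjusted p = 0.211). Lachnospiraceae UCG-006 stood at 0.468% and 0.664% (adjusted p = 0.596) and Lachnoclostridium at 0.370% and 0.340% (adjusted p = 0.896). GCA-900066575 was at 0.0360% and 0.158% (2.14, adjusted p = 0.0957).

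Anaerostipes, a lactate-using butyrate producer, had no read in any of the 8 KO libraries, while its sequence asv18 averaged 3.02% of WT DSS reads.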
